A study of Mus musculus with 38 samples.

Results

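The genes examined were 5 lymphoid cytokine receptor chains, Il2ra, Il2rb, Il2rg, Il7r and Crlf2. A ChIP-seq peak was assigned to a gene when its centre fell inside the mm10 gene body or within 50 kb of either end of it. This rule took 297 of the 359759 peaks in 17 lists, 79 around Il2ra, 90 around Il2rb, 41 around Il2rg, 47 around Il7r and 40 around Crlf2. The peaks were from Cas9-LP cells, lymphoid progenitor (LP) lines made from fetal liver of mice that lack Ebf1 and carry Cas9 in the Rosa26 locus, so every group, controls included, lacked this B-lineage factor and expressed the nuclease. The medium held SCF, Flt3L and human IL-7, the last of which is a ligand of the receptor that Il7r encodes, and it did so in the unstimulated state as well.

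LP cells were kept on OP9 stroma without Notch ligand. Phase 1 cells had spent 2 days on OP9-DLL4, stroma that presents the Notch ligand DLL4, and Phase 2 cells came from a later time on the same stroma. Antibodies against RUNX1, CTCF, the Mediator subunit Med12 and the acetyltransferase p300 were used in LP and Phase 1, and antibodies against Notch1-IC, the part of Notch1 that moves to the nucleus, in all 3 stages. Further cells received retroviral guide RNAs. These were RUNX1 in LP with sgCont or sgCTCF, RUNX1 in Phase 1 with sgCont or sgMed12, and Med12 in Phase 1 with sgCont or sgCbfb, where Cbfb is the partner that RUNX proteins need for stable DNA binding. There were 38 samples in 19 groups of 2 replicates. The 2 input groups had no list, and each of the 17 other groups had 1 list of peaks reproducible between its replicates. With replicates already combined, no difference below could be set against the spread between cultures, and no test was run. In these bulk samples, fewer cells with a bound site and less binding per cell cannot be told apart. The lists do not give the read depth of each sample, and a shorter list may hold fewer peaks for that reason alone. The guide lists of RUNX1 were short, with 874 to 2094 peaks, against 31995 and 38399 in the LP and Phase 1 lists without guides.

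These receptors signal through JAK kinases and STAT factors. Il2ra encodes CD25, the chain that raises the affinity of the IL-2 receptor and that marks thymocytes past the earliest stage. Il2rb encodes the chain shared by the receptors for IL-2 and IL-15, and Il2rg encodes the common gamma chain of a family of cytokine receptors. Il7r encodes the alpha chain that pairs with the common gamma chain to bind IL-7, and with the product of Crlf2 to bind TSLP. IL-7 signals are required for the survival of early lymphoid cells.

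Notch1-IC peaks lay at 4 positions in these windows, and a region inside Crlf2 held the RUNX1 peak with the highest percentile among the RUNX1 peaks of the 5 windows. Their plus-strand sequences, 200 bases around a peak centre from the RefSeq GRCm38.p6 assembly (the assembly behind mm10), are shown because the comparisons of stages and guides below turn on them. The Il2ra position was chr2:11623274-11623473, the Il2rb positions were chr15:78512042-78512241 and chr15:78518348-78518547, the Il7r position was chr15:9472312-9472511, and all were intergenic. The Crlf2 positions, chr5:109557390-109557589 and chr5:109556858-109557057, had their centres in introns. Of their 200 bases, 72 and 57 reached into coding exons. Capitals mark the RUNX core (TGTGGT or TGCGGT), its longer form (TGTGGTT or TGCGGTT) and the RBPJ core (TGGGAA), each searched on both strands. RBPJ is the protein through which Notch1-IC reaches DNA.
Il2ra -19.4 kb: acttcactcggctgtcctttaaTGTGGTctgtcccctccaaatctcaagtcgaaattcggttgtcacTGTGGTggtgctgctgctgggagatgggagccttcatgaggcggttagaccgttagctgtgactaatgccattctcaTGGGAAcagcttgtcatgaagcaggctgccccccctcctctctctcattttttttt
Il2rb -16.9 kb: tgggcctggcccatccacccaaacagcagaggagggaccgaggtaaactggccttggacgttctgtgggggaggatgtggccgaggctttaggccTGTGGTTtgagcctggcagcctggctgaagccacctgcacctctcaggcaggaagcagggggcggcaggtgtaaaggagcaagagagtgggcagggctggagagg
Il2rb -23.2 kb: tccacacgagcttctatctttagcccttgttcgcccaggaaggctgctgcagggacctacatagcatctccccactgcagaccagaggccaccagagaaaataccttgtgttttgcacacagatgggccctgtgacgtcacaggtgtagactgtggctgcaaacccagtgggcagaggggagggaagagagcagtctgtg
Il7r +57.8 kb: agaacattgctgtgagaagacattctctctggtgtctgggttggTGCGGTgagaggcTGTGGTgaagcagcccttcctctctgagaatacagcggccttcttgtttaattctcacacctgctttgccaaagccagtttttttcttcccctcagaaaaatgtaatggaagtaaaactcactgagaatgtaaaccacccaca
Crlf2 LP summit: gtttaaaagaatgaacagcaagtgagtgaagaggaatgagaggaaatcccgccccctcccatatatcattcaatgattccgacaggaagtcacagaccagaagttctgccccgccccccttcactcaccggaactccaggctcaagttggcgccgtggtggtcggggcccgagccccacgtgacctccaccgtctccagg
Crlf2 Phase 1 summit: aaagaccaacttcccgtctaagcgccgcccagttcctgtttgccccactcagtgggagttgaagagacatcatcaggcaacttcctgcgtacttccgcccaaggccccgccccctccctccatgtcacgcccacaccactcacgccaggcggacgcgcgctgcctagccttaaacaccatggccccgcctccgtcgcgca
The Il2ra sequence held 2 RUNX cores and 1 RBPJ core. The Il2rb sequence 16.9 kb before the start held the longer RUNX form. The Il7r sequence held 2 RUNX cores. Neither core was found in the other Il2rb sequence or in the Crlf2 sequences, which says only that these letters were not in those windows.

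The 5 genes differed in how RUNX1 peaks changed between stages. In LP and Phase 1 respectively, RUNX1 peaks numbered 5 and 12 around Il2ra, 8 and 10 around Il2rb, 5 and 5 around Il2rg, 6 and 7 around Il7r, and 2 and 3 around Crlf2. A peak was called shared when it had at least 1 bp in common with a RUNX1 peak from the opposite stage, and stage-specific otherwise. Of the 26 LP peaks, 23 were shared and 3 were LP-specific (11.5%, 95% Wilson interval 4.00% to 29.0%), compared with 16.8% of the whole LP list. Of the 37 Phase 1 peaks, 14 were Phase 1-specific (37.8%, interval 24.1% to 53.9%), compared with 30.7% of the whole list. Intervals here and below cover counting error only. Both intervals held the share of the whole list, so the 5 windows together could not be told from it at this count. The counts differed among the genes. Il2ra had 7 Phase 1-specific and no LP-specific RUNX1 peaks, Il2rb had 4 and 2, Il2rg had none of either, Il7r had 1 and none, and Crlf2 had 2 and 1. Of all protein-coding genes, 0.82% had 7 or more Phase 1-specific peaks, 6.71% had 4 or more, 28.4% had 2 or more and 52.25% had 1 or more. For LP-specific peaks, 16.3% had 2 or more and 38.4% had 1 or more. The counts of Il7r and Crlf2 were thus common ones.

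**Figure D1:**
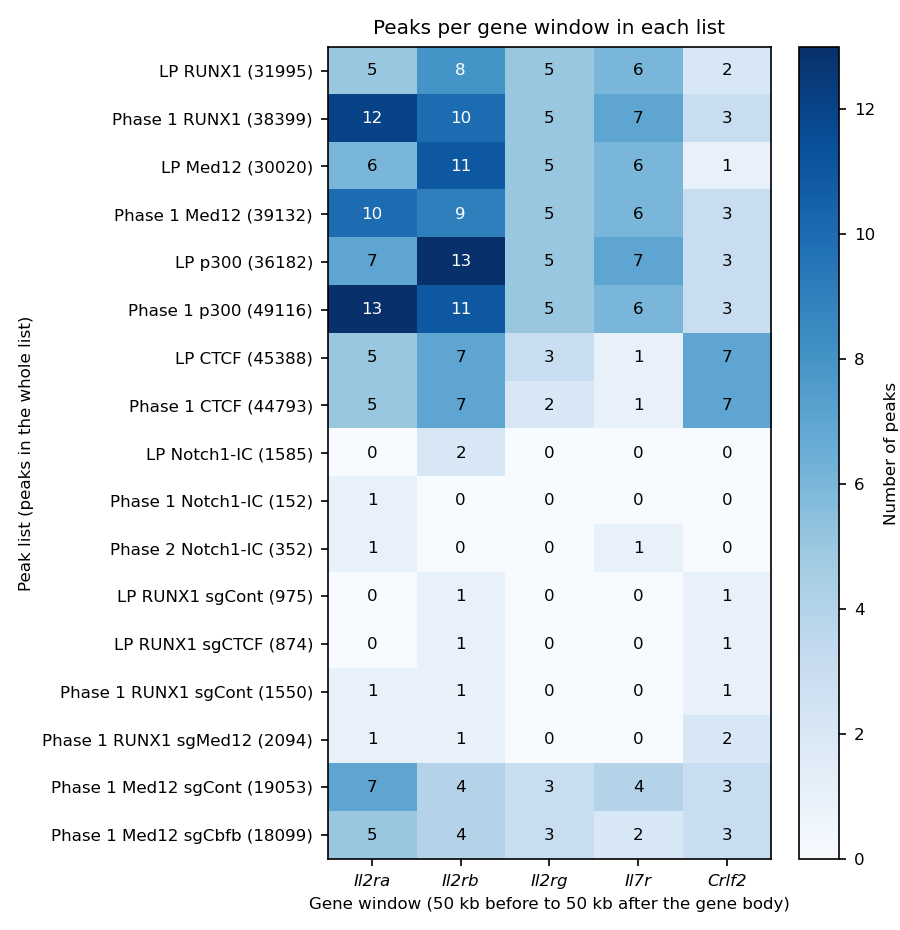
Number of peaks per gene window (columns) in each of the 17 peak lists (rows, with the length of the whole list in parentheses). From LP to Phase 1, RUNX1 went from 5 to 12 peaks around Il2ra, while Il2rg kept 5.

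Around Il2ra, Phase 1 had more peaks than LP of RUNX1, Med12 and p300, before the gene and in its first part. All 5 LP RUNX1 peaks were shared, and 7 more appeared in Phase 1. Of 21938 protein-coding genes treated in the same way, 0.820% had 7 or more Phase 1-specific RUNX1 peaks, with a median of 1. Windows grow with the gene, and that of Il2ra spanned 150.4 kb, compared with a median of 117.4 kb. The new peaks lay 19.5, 13 and 6.55 kb before the start, at the start itself, 15 and 20.2 kb into the first part of the gene, and 63.0 kb past the start at the neighbouring gene Il15ra, which encodes the alpha chain of the IL-15 receptor. Med12 had 6 peaks in LP and 10 in Phase 1, and p300 had 7 and 13. Its 5 Phase 1-specific Med12 peaks were equalled or exceeded in 4.97% of genes and its 6 Phase 1-specific p300 peaks in 5.33%. The Phase 1 lists were longer than the LP lists for all 3 factors.

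The strongest of these sites was 19.5 kb before Il2ra. In Phase 1 it had a RUNX1 peak of score 206.9, higher than or equal to 94.6% of its list, a Med12 peak of 291.1 (99.3%) and a p300 peak of 564.7 (99.4%). The score is the one the authors deposited, its scale is not stated, and the percentages in parentheses give its percentile within its own list. No LP list of RUNX1, Med12, p300, CTCF or Notch1-IC had a peak there, and the nearest LP RUNX1 centre was 13938 bp away. Notch1-IC was present in Phase 1 (score 24.4, 71.7%) and in Phase 2 (86.1, 94.3%) with centres 19.4 kb before the start. At least 1 Notch1-IC peak of Phase 1 or Phase 2 was found in the windows of 3.57% of protein-coding genes. RUNX1 was also listed there in both Phase 1 guide lists, at 20.5 in sgCont and at 15 in sgMed12, the lowest score of that list.

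Other Il2ra sites were occupied in part before stimulation. The site 5.5 kb before the start had RUNX1, Med12 and p300 in both stages, with RUNX1 at 66.9 in LP (63.7%) and 108.9 in Phase 1 (81.3%). At 6.5 kb before the start, p300 was present in LP (37.0, 36.5%) without RUNX1 or Med12, and all 3 were present in Phase 1. The start itself had a weak Med12 peak in LP (17.3, 5.63%), and in Phase 1 Med12 (19.8), p300 (24.4) and RUNX1 (26.5, 28.3%). In the gene, shared RUNX1 peaks lay at 10.7 and 12.6 kb. A RUNX1 peak at 15 kb, of score 50.1, was in no other list. CTCF bound 5 positions in both stages, among them 39.5 kb before the start at Rbm17, a splicing factor gene, where its score was at the 99.5% and 99.6% positions of the LP and Phase 1 lists. At the intronic CTCF site 21.4 kb into the gene, RUNX1 was listed in LP (16.8) and in Phase 1 (17.5), both near 15, the lowest score of these 2 lists.

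**Figure D2:**
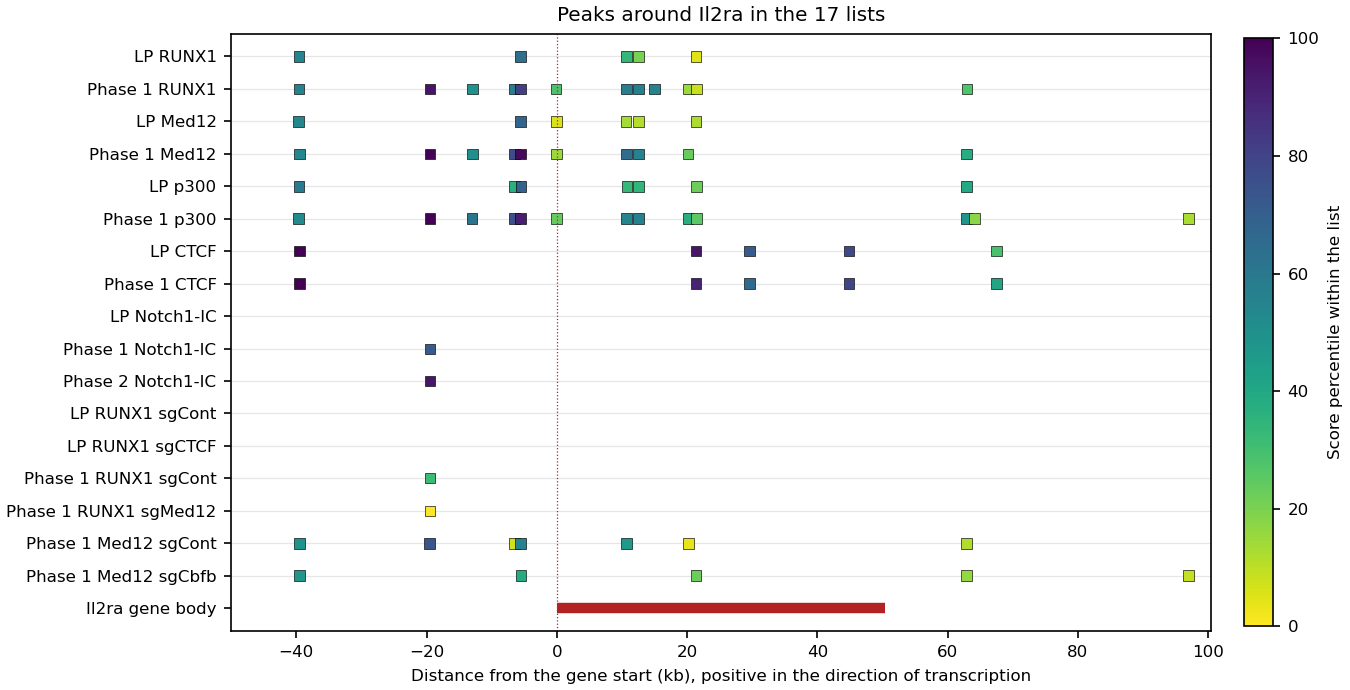
Peaks around Il2ra in the 17 lists (rows), by distance of the peak centre from the gene start in kb, with colour for the score percentile within the list. Between 20 kb before the start and the start, LP RUNX1 had 1 peak and Phase 1 RUNX1 had 5.

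Il2rb had stage-specific peaks of both stages. Its window held 2 of the 3 LP-specific RUNX1 peaks, a number reached by 16.3% of protein-coding genes, and 38.4% had at least 1. The first, 16.9 kb before the start, had RUNX1 of score 167.7 (91.8%), Med12 of 115.6 (82.2%), p300 of 247.3 (94.1%) and Notch1-IC of 21.8 (57.4%), all in LP, and none of these factors was listed there in Phase 1. The nearest Phase 1 RUNX1 centre was 1245 bp away. The LP Notch1-IC list held 1585 peaks, against 152 in Phase 1 and 352 in Phase 2. The RBPJ core was in 13.4% of these LP peaks, compared with 14.2% of the LP RUNX1 list and 55.3% of the Phase 1 Notch1-IC list. Whether the LP peaks mark cleaved Notch1 was not tested. At the 16.9 kb site the guide lists did not follow the order of the stages. RUNX1 was listed at this position in LP with sgCTCF (33.6) but not with sgCont, and it was listed in Phase 1 with sgCont (20.8), so its absence from the Phase 1 list without guides did not extend to every Phase 1 list. The second LP-specific peak, 37.0 kb before the start (44.6, 47.8%), overlapped CTCF peaks that were among the highest of both lists (371.0 in LP and 465.7 in Phase 1, each at 99.3%). It was the single LP-specific RUNX1 peak of 3 that overlapped LP CTCF, compared with 36.8% of all LP-specific RUNX1 peaks.

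Next to these lay shared sites that took lower positions in Phase 1. RUNX1 at 23.2 kb before the start had a score of 148.2 in LP (89.2%) and 96.9 in Phase 1 (77.8%), and at 15.7 kb before it 126.1 (85.2%) and 103.8 (79.9%). The 23.2 kb site was the other LP Notch1-IC position of Il2rb (18.9, 41.3%), and 11.9% of protein-coding genes had at least 1 LP Notch1-IC peak. The share of genes with 2 or more was not counted. Just inside the gene the order was the opposite. RUNX1 at 1.6 kb past the start was at the 39.3% position in LP and at 57.5% in Phase 1, and p300 at 39.3% and 78.0%. At the start, Med12 and p300 were in both stages, at 15.4 and 23.9 in LP and at 31.9 and 41.9 in Phase 1, and RUNX1 was in Phase 1 alone (35.4, 41.2%). The highest-scored shared site by p300 was 45.0 kb past the start in an intron of Tmprss6, which encodes a liver protease of iron metabolism. There p300 scored 224.0 in LP (92.7%) and 362.4 in Phase 1 (98.0%), and RUNX1 scored 90.0 (74.7%) and 152.0 (89.3%). About 15 kb before the start, Med12 counted as stage-specific in both stages, with an LP peak 15.6 kb before it (74.9) and a Phase 1 peak 15.1 kb before it (53.2), while RUNX1 and p300 at the same site were shared. The window also held Kctd17, C1qtnf6 and Sstr3, and which gene any of these sites acts on was not measured.

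**Figure D3:**
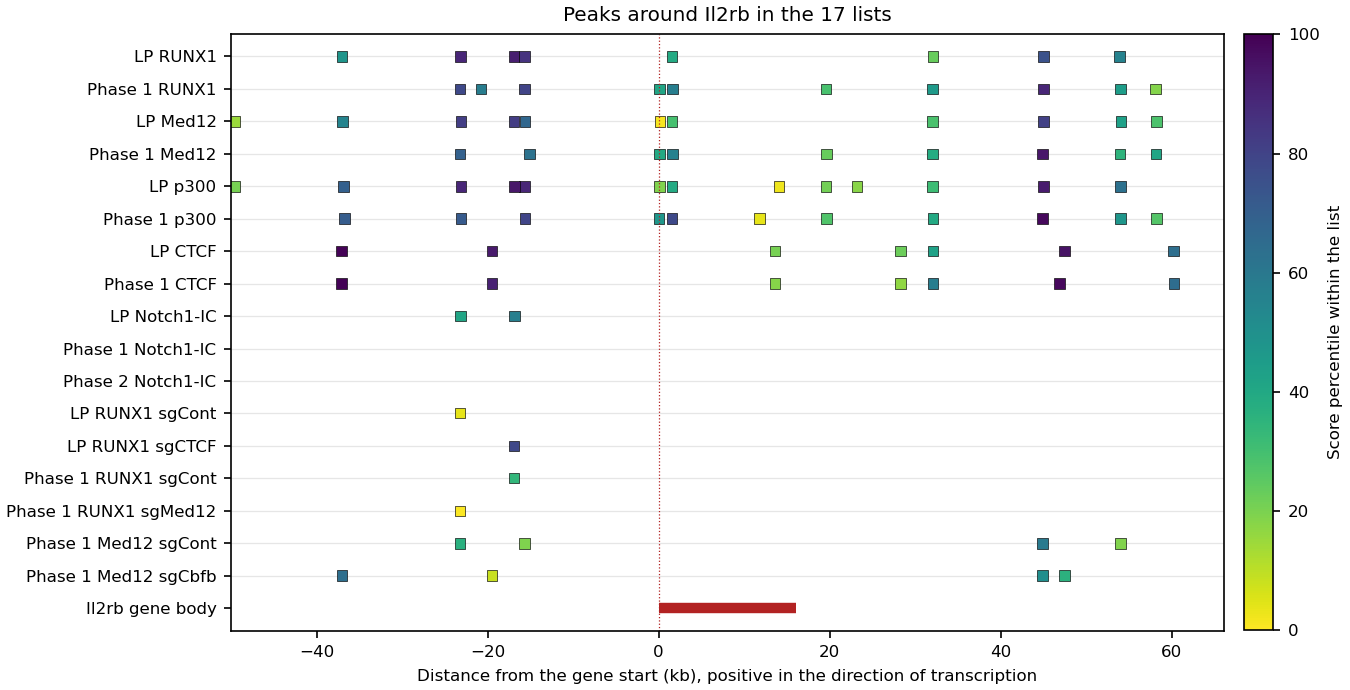
Peaks around Il2rb in the 17 lists (rows), by distance of the peak centre from the gene start in kb, with colour for the score percentile within the list. The site 16.9 kb before the start has peaks in the LP rows and none in the Phase 1 rows without guides.

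Il2rg was the 1 member without a stage-specific RUNX1 or p300 peak. All 5 RUNX1 peaks and all 5 p300 peaks of each stage were shared, as were 4 of the 5 Med12 peaks. At the start of Il2rg, RUNX1 scored 23.5 in LP (20.0%) and 26.6 in Phase 1 (28.5%), Med12 18.8 (9.16%) and 18.5 (11.5%), and p300 23.6 (18.5%) and 24.0 (22.8%). All 3 were thus low in their lists in both stages. The window has 6 other protein-coding genes, among them Foxo4, a forkhead factor gene, and Med12, the gene that sgMed12 targets. The highest RUNX1 score of LP was at the Med12 promoter, 5.83 kb before Il2rg (55.0, 56.2%). The CTCF peak there was LP-specific but close to the lower limit (16.8, 3.93%).

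Il7r had RUNX1, Med12 and p300 together at 5 sites in both stages, as did Il2rb and Il2rg. Il2ra had 4 such sites and Crlf2 had 1. Near the start, 0.3 kb into the gene and just past the 100 bp allowed for a start peak, RUNX1 scored 51.1 in LP (53.3%) and 45.6 in Phase 1 (51.4%). The highest RUNX1 score was 57.8 kb past the start, beyond the end of the gene, with 104.4 in LP (79.6%) and 95.4 in Phase 1 (77.4%). This position had a Notch1-IC peak in Phase 2 (22.3, 56.3%) and none in LP or Phase 1. The highest p300 score was 66.3 kb past the start in an intron of Capsl, with 292.3 (96.0%) and 302.5 (96.9%). The 1 Phase 1-specific RUNX1 peak lay 3.49 kb before the start, at a low score (16.1, 4.03%). Med12 had a peak there in both stages (20.1 in LP and 31.7 in Phase 1). The window contained 1 CTCF peak per stage, compared with 7 per stage around Crlf2.

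Crlf2 had few RUNX1 peaks, but those at the start and inside the gene ranked high. At the start RUNX1 scored 175.4 in LP (92.5%) and 166.5 in Phase 1 (91.2%). Inside the gene the LP peak scored 246.9 (97.1%) and was centred 1.5 kb past the start, and the Phase 1 peak scored 185.0 (93.0%) and was centred 2.04 kb past it. Because they shared no base, they counted as 1 LP-specific and 1 Phase 1-specific peak, although their centres were 532 bp apart. Peaks within each of these lists had 1 width, 341 bp in LP and 329 bp in Phase 1, and no centres closer than 639 and 664 bp, so these positions lay closer together than any 2 peaks of either list. A Phase 1 RUNX1 centre within 1 kb was found for 9.77% of all LP-specific RUNX1 peaks.

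Neither position was particular to a stage or to a factor. The position nearer the start held LP RUNX1, LP Med12, Phase 1 p300, LP RUNX1 with sgCTCF, Phase 1 RUNX1 with sgCont and sgMed12, and Phase 1 Med12 with sgCont. The position farther in held Phase 1 RUNX1, Phase 1 Med12, LP RUNX1 with sgCont and Phase 1 Med12 with sgCbfb, and the LP p300 peak lay between them. With the positions counted as the same site, all 12 lists of RUNX1, Med12 and p300 had a peak in this region, more than at any other site of the 5 windows. A further Phase 1-specific RUNX1 peak lay 10.2 kb past the start (36.7, 42.7%), on a CTCF peak of both stages. It was the only one of the 14 that overlapped Phase 1 CTCF, compared with 6.96% of all Phase 1-specific RUNX1 peaks.

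**Figure D4:**
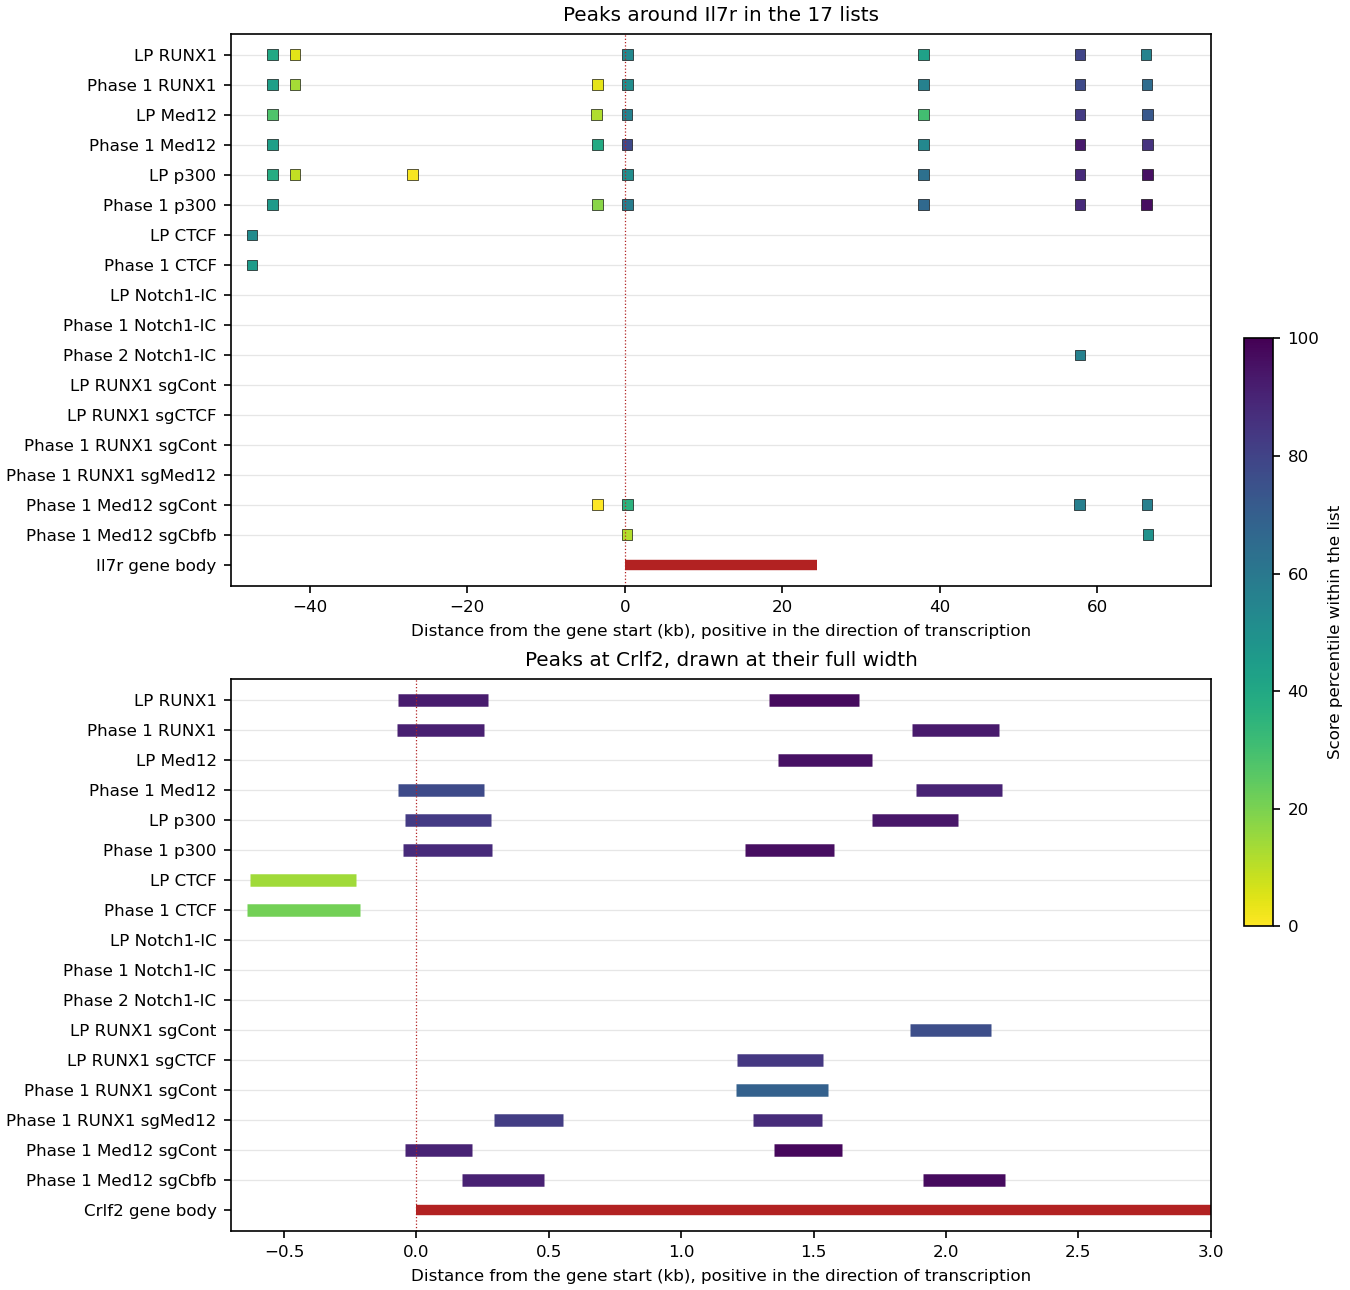
Top, peak centres around Il7r in the 17 lists, by distance from the gene start in kb. Bottom, peaks at the start and in the first 3 kb of Crlf2 drawn at their full width. Colour gives the score percentile within the list, and the Crlf2 peaks more than 1 kb past the start fall at either of 2 positions, except LP p300, which lies between them.

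Cofactors were read at the stage-specific RUNX1 peaks. Of the 14 Phase 1-specific peaks, 12 overlapped Phase 1 Med12 (85.7%, interval 60.1% to 96.0%; 75.0% of all such peaks) and 11 overlapped Phase 1 p300 (78.6%, 52.4% to 92.4%; 79.6% of all). Of the 14, 6 already overlapped a p300 peak in LP (42.9%, interval 21.4% to 67.4%), compared with 19.4% of all Phase 1-specific RUNX1 peaks, and 4 already overlapped Med12 in LP (28.6%, 11.7% to 54.7%), compared with 8.40% of all. The lower bounds of both intervals were above the shares of the whole list, but peaks of 1 window are not independent of each other. The p300 count also includes the Crlf2 peak 2.04 kb past the start, whose centre lay 532 bp from an LP RUNX1 centre. No interval was computed without it, and the p300 lower bound of 21.4% was close to the 19.4% of the whole list. Whether the p300 share would stay apart without that peak was not tested. LP p300 was at 2 of these peaks around Il2ra (6.5 kb before the start and at Il15ra), 2 around Il2rb (the start and 19.6 kb past it) and 2 at Crlf2. LP Med12 was at the starts of Il2ra and Il2rb, 58.1 kb past the start of Il2rb and 3.49 kb before the start of Il7r.

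Med12 and p300 peaks were then split by stage in the same way. Of LP Med12 peaks 7 of 29 were LP-specific (24.1%; 19.5% of the list), and of Phase 1 Med12 peaks 11 of 33 were Phase 1-specific (33.3%; 38.2% of the list). Both counts include pairs with nearby centres, 379 bp apart before Foxo4 in the Il2rg window, 507 bp at Crlf2 and 519 bp before Il2rb. Of LP p300 peaks 7 of 35 were LP-specific (20.0%; 20.7% of the list). Of Phase 1 p300 peaks 10 of 38 were Phase 1-specific (26.3%, interval 14.97% to 42.0%; 41.6% of the list). Il2ra accounted for 6 of these 10, and Il2rg for none. The Crlf2 peak among them had its centre 475 bp from an LP-specific p300 centre.

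Shared sites were compared by their percentile in each list. The Phase 1 lists of RUNX1, Med12 and p300 were longer, and over the whole lists shared peaks stood higher in Phase 1 by a median of 2.59, 2.91 and 3.08 percentile points. In the 5 windows the medians were 8.5 points for RUNX1 (16 of 23 sites higher in Phase 1), 12.7 for Med12 (19 of 22) and 6.09 for p300 (23 of 28). Over the whole lists these counts were 16453 of 26610, 14259 of 24171 and 18479 of 28691. Most shared peaks thus stood higher in Phase 1 throughout. A position at least 20 points higher in Phase 1 was seen at 4 of 23 RUNX1 sites (17.4%, interval 6.98% to 37.1%; 14.7% of all shared sites), at 8 of 22 Med12 sites (36.4%, 19.7% to 57.1%; 19.9% of all) and at 7 of 28 p300 sites (25.0%, 12.7% to 43.4%; 16.6% of all). No RUNX1 or Med12 site was lower by as much, compared with 4.21% and 5.43% of all.

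At Il2ra all 5 shared sites of RUNX1 and all 5 of Med12 were higher in Phase 1, by medians of 17.6 and 29.8 points. The smallest rises, 1.02 points for RUNX1 and 0.43 for Med12, were at Rbm17, 39.6 kb before the start. They were below the whole-list medians of 2.59 and 2.91, and the scores there fell, from 52.5 to 50.3 and from 53.1 to 43.8. The site 10.7 kb into the gene was at 33.7% in LP and 58.0% in Phase 1 by RUNX1, and at 13.5% and 64.9% by Med12. The site at 12.6 kb was at 20.1% and 56.3% by RUNX1 and at 11.0% and 55.9% by Med12. At Il7r all 6 Med12 sites were higher, by 10.4 to 27.4 points, while RUNX1 at the 6 shared sites differed by -2.25 to 13.4 points. At Il2rg the 4 shared Med12 sites differed by -0.68 to 2.34 points. The 21 shared CTCF sites had a median of -1.25 points, compared with -0.516 over the whole list.

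**Figure D5:**
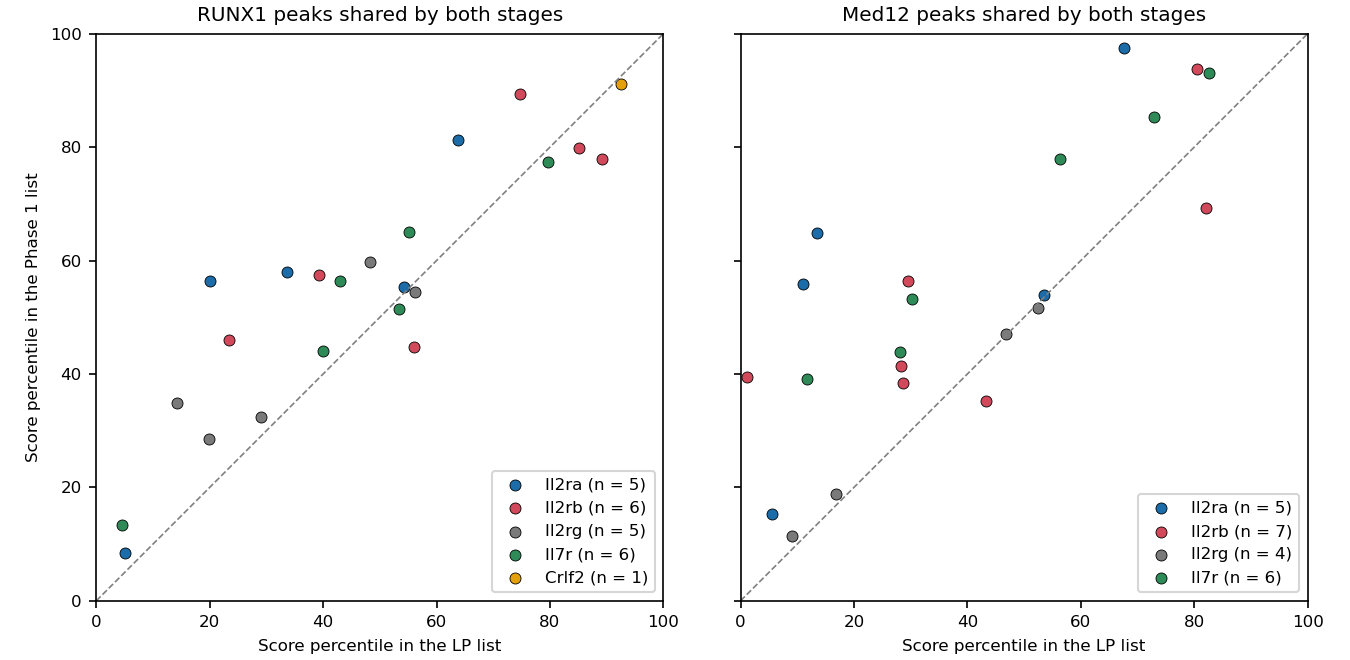
Score percentile of shared RUNX1 (left) and Med12 (right) peaks in the LP list (horizontal) and in the Phase 1 list (vertical), with the dashed line at equal percentile and 1 point per site. The Il2ra points lie above the line in both panels, and for Med12 so do those of Il7r.

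CTCF, the factor that anchors chromatin loops, had 23 LP and 22 Phase 1 peaks in the windows, of which 2 were LP-specific (8.70%; 9.55% of the list) and 1 was Phase 1-specific (4.55%; 8.35% of the list). Both of the stage-specific peaks in the Il2rb window, 47.4 kb past the start in LP (252.0, 95.2%) and 46.9 kb in Phase 1 (354.8, 97.8%), had centres 567 bp apart in an intron of Tmprss6. A Phase 1 CTCF centre within 1 kb was found for 5.49% of all LP-specific CTCF peaks. The third was the weak peak at the Med12 promoter. LP RUNX1 overlapped 5 of the 23 LP CTCF peaks (21.7%, interval 9.66% to 41.9%), compared with 16.4% of the list.

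Loss of Cbfb was read through Med12. Of 21 Med12 peaks with sgCont, 10 had no overlapping peak with sgCbfb (47.6%, interval 28.3% to 67.6%), compared with 32.2% of the list. With only peaks of score 30 or more in both lists, 5 of 10 were missing, so the counts below rest partly on low-scored peaks. Among these 5 was the peak 5.5 kb before Il2ra (39.5), whose sgCbfb partner (29.5) fell below the cut. Of 17 with sgCbfb, 6 were not in sgCont (35.3%, 17.3% to 58.7%; 28.6% of the list). The sgCont list covered 19 of the 33 Phase 1 Med12 peaks of the windows (57.6%, 40.8% to 72.8%; 45.4% of the list). The missing peaks were 4 of 7 at Il2ra, 3 of 4 at Il2rb, 2 of 4 at Il7r, 1 of 3 at Crlf2 and none of 3 at Il2rg. The Crlf2 case was the pair of positions described above. The peak 6.49 kb before Il2ra had an sgCbfb centre 983 bp away, but that centre belonged to the separate site 5.5 kb before the start, present in both lists.

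Both sites with Notch1-IC in Phase 1 or Phase 2, 19.5 kb before Il2ra (Med12 57.4 with sgCont, 74.1%) and 57.8 kb past the start of Il7r (40.5, 57.4%), had Med12 with sgCont and not with sgCbfb. The same held 23.2 kb before Il2rb (28.2, 36.5%), while 16.9 kb before Il2rb neither list had a peak. Over the whole list, 52.3% of the 281 sgCont Med12 peaks with Notch1-IC of Phase 1 or Phase 2 were missing, and 31.9% of those without. In the windows 8 of the 10 missing peaks had no such Notch1-IC peak, out of 19 sgCont Med12 peaks without one, so most of the missing peaks were elsewhere. Med12 5.5 kb before Il2ra was in both lists (39.5 and 29.5), as it was near the start of Il7r (28.1 and 18.3) and at the start of Crlf2 (93.3 and 101.3).

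Overlap with CTCF was counted for the missing, the kept and the sgCbfb-only Med12 peaks. None of the 10 missing peaks overlapped a CTCF peak of either stage (0%, interval up to 27.8%), compared with 16.8% of all missing peaks in the list. Of the 11 in both lists, 3 did (27.3%; 32.5% of all such peaks). Of the 6 seen with sgCbfb alone, 4 did (66.7%, interval 30.0% to 90.3%), compared with 46.0% of all such peaks. These 4 were at 47.5 kb past and 19.5 and 37.0 kb before the start of Il2rb and at 21.4 kb into Il2ra. Their scores ran from 17.2 to 48.6. The sgCbfb list had fewer RUNX cores as a whole, in 20.0% of its peaks compared with 35.3% with sgCont. In the windows these were 3 of 17 and 9 of 21.

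RUNX1 with guides was too sparse to compare between the 5 genes. In LP, sgCont and sgCTCF had 2 peaks each, at Il2rb and Crlf2, and neither peak of sgCont was in sgCTCF, compared with 40.9% missing over the list. The Crlf2 peaks had centres 643 bp apart, at the pair of positions described above, so both guides had RUNX1 in that region. At Il2rb they were at 23.2 kb with sgCont (17.6) and at 16.9 kb with sgCTCF (33.6), both positions of LP Notch1-IC. In Phase 1, sgCont had 3 peaks and sgMed12 had 4. One peak of sgCont was missing with sgMed12, compared with 29.0% over the list, and it was again at Il2rb, where sgCont had the 16.9 kb and sgMed12 the 23.2 kb position. The fourth sgMed12 peak was 0.4 kb past the start of Crlf2 (29.1, 82.1%).

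Short strings were counted in the 200 bases around each centre. The RUNX core was in 10 of the 26 LP and 17 of the 37 Phase 1 RUNX1 peaks of the windows, compared with 42.0% and 47.7% of the lists, and the longer form in 4 and 7, compared with 21.2% and 25.4%. The RBPJ core was at the Il2ra position of Notch1-IC and not at that of Il7r, compared with 55.3% of the Phase 1 and 51.3% of the Phase 2 Notch1-IC list. Its longer form GTGGGAA was at neither. The letters of a STAT site, TTCNNNGAA, were at 5 of 37 Phase 1 RUNX1 peaks (8.02% of the list), 3 of them around Il2ra, 1 around Il2rb and 1 around Il7r, and those of AP-1 (TGACTCA or TGAGTCA) at 4 of 37 (8.66%). PU.1, as GAGGAAGT, was at 2 (8.63%). The CTCF consensus was at 6 of 23 LP and 5 of 22 Phase 1 CTCF peaks, compared with 16.6% of each list. Of promoters from 250 bases before to 50 after the start, 4 of the 5 genes were in the RefSeq table. That of Il7r held the longer RUNX form (6.75% of 32817 promoters) and the STAT letters (8.29%), and the promoters of Il2ra, Il2rg and Crlf2 held neither. The RUNX core was in all 4 (22.4% of promoters), and the RBPJ core in those of Il2rg and Crlf2 (25.6%).

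Genes that work with these receptors were counted in windows of the same kind. The list had 25 genes, with 7 ligands, 4 other receptor chains, 7 kinases or STAT factors, 4 feedback inhibitors and 3 targets. A Phase 1-specific RUNX1 peak was found for 22 of 25 (88.0%), compared with 52.3% of all protein-coding genes, and an LP-specific peak for 14 of 25 (56.0%), compared with 38.4%. Phase 1-specific peaks outnumbered LP-specific peaks for 19 of 25, compared with 36.3% of all genes, and the reverse was seen for none, compared with 16.9%. Windows were not matched for length, and neighbours such as Il2 and Il21, or Stat3, Stat5a and Stat5b, share peaks. Il15ra shares peaks with the member Il2ra, among them the Phase 1-specific RUNX1 peak at Il15ra described above. No Phase 1 RUNX1 peak at all was found for 4858 of the 21938 genes and for none of the 25. The comparison was not limited to genes with a RUNX1 peak, so it does not separate a stage difference from more RUNX1 peaks in general. The median was 2 Phase 1-specific and 1 LP-specific peak, compared with 1 and 0. Il4, a ligand of the common gamma family, had 1 RUNX1 peak in LP and 6 in Phase 1. Stat3 had 7 and 12. Jak3, the kinase bound to the common gamma chain, had 9 in each stage, and Il7 had 1 in each. Phase 1 Notch1-IC had no peak in any of these windows. Its list held 152 peaks, and 3.57% of all genes had a Notch1-IC peak of Phase 1 or Phase 2. None of 25 thus does not set these genes apart. LP Notch1-IC had peaks at 7 of 25 (11.9% of all genes), Il21r (2), Stat6 (1), Bcl2 (1), Pim1 (2) and at the inhibitors Socs1 (2), Socs3 (1) and Cish (3). Phase 2 Notch1-IC had 1 peak at each of Stat3, Stat5a, Stat5b and Socs3, or 4 of 25 (2.68% of all genes).

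The genes whose peak counts over the 17 lists were most like those of each member were Fam207a, Malt1 and P4ha2 for Il2ra (summed differences of 9, 11 and 12 peaks), Fpgs, Adora3 and Kctd1 for Il2rb (10, 11 and 12), Mbd1, Nlrc3 and Oaz3 for Il2rg (1, 1 and 2), St8sia4, Ap5b1 and Chuk for Il7r (6, 8 and 8), and D130043K22Rik, Mob1b and Nsun2 for Crlf2 (7, 7 and 7). Of these, 10 genes were at or under the third place for Il7r, and 3 to 5 for the others. The labelled cell type was checked by p300 at gene starts, which is occupancy and not expression. Peaks were found at 4 of 6 lymphoid progenitor markers in LP and 2 of 6 in Phase 1 (Flt3 and Kit in both), at 3 of 6 early T markers in each stage (Cd3g, Tcf7 and Bcl11b), and at none of 4 B and none of 3 erythroid markers. A p300 peak was at 42.1% of all protein-coding gene starts in LP and at 42.5% in Phase 1, so these counts of few genes do not settle the label, and the early T markers did not separate the stages. Of 4 myeloid markers Lyz2 and Mpo had a peak in LP and Lyz2 in Phase 1, and of 4 markers of the OP9 stroma Cxcl12 had a peak in Phase 1 alone. Their part in the results was not tested.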

How the data were processed

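ChIP-seq of Cas9-LP cells was analysed from the deposited peak lists, 1 per ChIP group, each combining 2 replicates. Per the submitters' processing notes, the authors used Bowtie 1.1.1, HOMER and mm10. They called peaks in HOMER factor mode against a matched control, and kept those reproducible by IDR with a normalized score of at least 15. The unit is the peak score deposited by the authors, whose scale is not stated. Scores were used only within a list, as values and percentiles. The lists give no value per replicate and no depth, so no test was run.

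Gene bodies and annotation came from GENCODE M21, and sequences from RefSeq GRCm38.p6. Coordinates are 1-based. Overlap of at least 1 bp was used throughout with Python 3.11.15, pandas 2.3.3, scipy 1.17.1 and pysam 0.24.0, and checked on simulated intervals. Shares carry 95% Wilson intervals. Single peaks named are the highest RUNX1 peak of each class, Notch1-IC, guide, LP-specific, start and stage-specific CTCF peaks, and overlapping sgCont Med12 peaks. Others were named after their values were seen, to describe a group. The members and lists were chosen with earlier results of these data known. The cores of 6 bases were added after the longer strings had been searched.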

Additional observations from a re-analysis of the deposited data

How the results depend on the processing

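The 8 counts over the 5 windows and the count of Phase 1-specific RUNX1 peaks around Il2ra were recomputed under 5 other settings and 1 chosen after seeing the data, 54 values in all, of which 44 stayed within 1.5 times. With shared peaks required to have centres within 100 bp, LP-specific RUNX1 peaks went from 3 to 5. With only peaks of score 30 or more, sgCont Med12 peaks missing from sgCbfb went from 10 to 5. Among the 5 was a peak whose sgCbfb partner, at 29.5, fell below that score. With lists cut to equal length, LP-specific RUNX1 peaks were 5, those with LP CTCF were 2 and Phase 1-specific p300 peaks were 5. With windows of 20 kb, shared RUNX1 peaks were 14, stage-specific CTCF peaks were 1 and LP-specific RUNX1 peaks with CTCF were 0. With centres within 1 kb counted as shared, the setting chosen after seeing the data, stage-specific CTCF peaks were 1 and Phase 1-specific Med12 peaks were 7. The 7 Phase 1-specific RUNX1 peaks of Il2ra were 5 to 7 under these settings. No paired analysis was possible because each list combines both replicates, and leaving out a replicate could not be run for the same reason. The lists do not give depth, and absence from a list does not show absence of binding, least of all in the short guide lists.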
